A study of Mus musculus with 9 samples.

Results

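The genes of the proteasome and of the COP9 signalosome were followed in testis RNA of juvenile Spo11-/- and wild-type mice. They were chosen by name, as the genes with a probe of exactly 1 symbol in the platform annotation that begins with Psma to Psmg or with Cops and a digit; Psmc3ip, which shares the letters but is not a proteasome gene, was left out. This gave 50 genes on 68 probes, of 7114 genes with a value. They fall into the proteasome core (15 genes), its regulatory cap (18), its activators and core assembly chaperones (8) and the signalosome (9). Spo11 encodes the enzyme that cuts DNA at the start of meiotic recombination. Whole testes were compared on 2-colour spotted cDNA arrays, 1 Spo11-/- against 1 wild-type sample per array, with 4 arrays of mice aged 15 days and 5 of mice aged 12 days. No treatment is named in the labels, and neither strain nor allele is stated in the sources used here. Per the design text, mouse pairs differed between arrays and came from a common litter. It speaks of quadruplicates, and the sources do not say whether any RNA was used again among the 5 arrays of 12 days. Spo11 itself has no annotated probe, so the knockout could not be read from the arrays.

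The proteasome degrades proteins tagged with ubiquitin chains. Its core is a barrel of alpha and beta rings, in which the beta subunits encoded by Psmb5, Psmb6 and Psmb7 cut the substrate. The cap recognises the ubiquitin chain, removes it and unfolds the protein with a ring of ATPases, whereas activators such as PA28 and PA200 open the barrel without ubiquitin, and assembly chaperones help to build core and cap. The COP9 signalosome is built much like the lid of the cap, and its Cops5 subunit removes the ubiquitin-like protein NEDD8 from cullins, the scaffolds of a large family of ubiquitin ligases. In the testis the proteasome is known for its work in meiosis and in the replacement of histones in spermatids, for which germ cells use the core subunit Psma8 and the activator Psme4. Psma8, the immunoproteasome genes Psmb8, Psmb9 and Psmb10, Psme2 and the inhibitor Psmf1 were not analysed here, as no probe carried their symbol alone.

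Between 72.1% and 91.3% of the 16128 probes had a value on an array, and the median of every array was 0. By the labels, the dye of Spo11-/- RNA was Cy3 on every 15-day array and on 12-day replicates 2 and 3, and Cy5 on 12-day replicates 1, 4 and 5. Arrays of 15 days nevertheless correlated below 0 with 12-day replicate 3 (r = -0.38 to -0.33 across probes) and with 12-day replicate 2 (r = -0.25 to -0.11), although the dyes ran the same way. The direction of the deposited ratio is therefore not settled. Values at 15 days are log2 ratios with their sign as deposited: under the Cy5 over Cy3 reading a value below 0 is a higher level in Spo11-/-, and under the opposite reading it is a lower one. In the text, below and above refer to 0 on this scale, and a feature passed where limma's adjusted p was under 0.05.

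At 15 days, 48 of the 50 genes were tested, and Psma2 and Psmb2 had no value. Of the 48, 7 passed below 0 (14.6%) and 1 passed above 0 (2.08%). Over all genes tested, 7.2% passed below and 4.04% above, 11.2% in all. Over all features, which include probes with no single gene, 5.37% passed below and 7.05% above, 12.4% in all. Those below were the catalytic core subunit Psmb6, the cap ATPase Psmc3, the core assembly chaperones Psmg2 and Psmg4, and the signalosome subunits Cops3, Cops7a and Cops8. The 1 above was Psmd10, gankyrin, a chaperone of cap assembly. The other 40 did not pass. The median of the 48 genes was -0.13 and that of all genes -0.02. Below 0 on every array lay 39.1% of the 46 members with 4 values, against 23.1% of all genes with 4 values. Above 0 on every array lay 3 members, against 14.4% of all genes. The share of members below 0 was 80.4%, 79.2% and 72.9% on replicates 1, 2 and 3, and 54.2% on replicate 4. Since whole testes were used, fewer cells of a type and less RNA per cell cannot be told apart in any of these values.

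**Figure D1:**
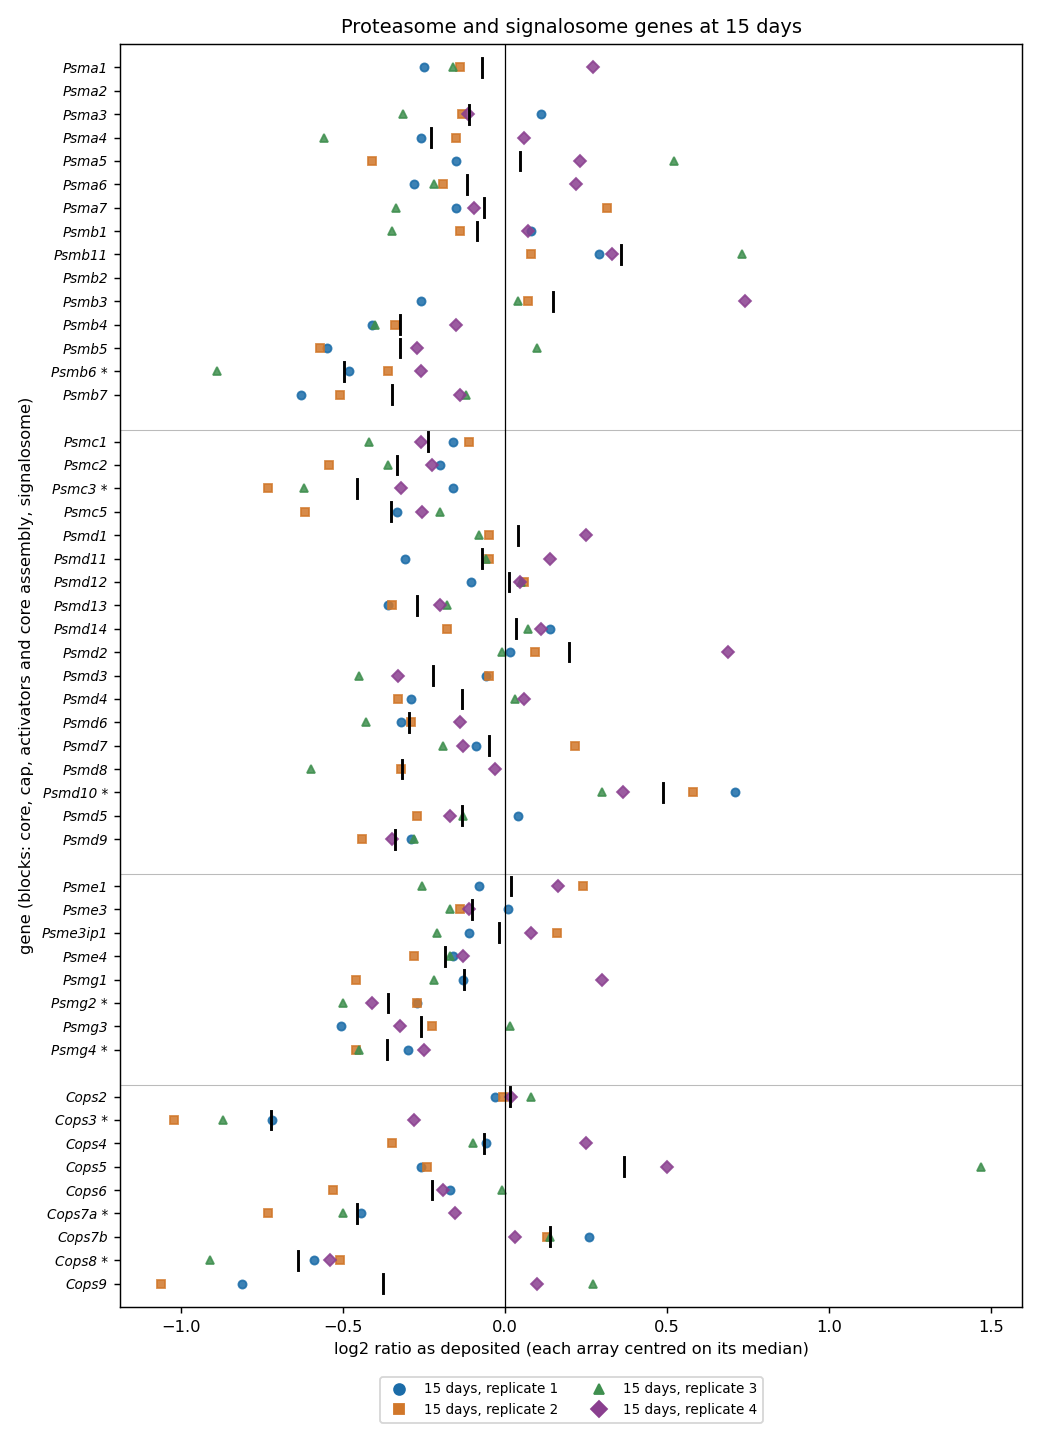
Log2 ratios at 15 days, with the sign as deposited, for each gene (rows, in blocks of core, cap, activators and core assembly, and signalosome) on each of the 4 arrays (symbols). Black ticks are means and asterisks mark limma's adjusted p under 0.05; the 3 genes passing below in the signalosome block, Cops3, Cops7a and Cops8, lie below 0 on every array, and Psmd10 lies above 0 on every array.

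The upstream sequences of 4 of these genes are shown because they are the lowest signalosome pair, the lowest core gene and the 1 gene above 0. They are the 250 bases before the RefSeq start site in GRCm38.p6, written 5′ to 3′ on the strand of the gene, and capitals mark the motif matches described after them. Cops3 lies at chr11:59839768-59840017 on the minus strand, Cops8 at chr1:90603175-90603424 on the plus strand, Psmb6 at chr11:70525107-70525356 on the plus strand and Psmd10 at chrX:140956712-140956961 on the minus strand.
Cops3: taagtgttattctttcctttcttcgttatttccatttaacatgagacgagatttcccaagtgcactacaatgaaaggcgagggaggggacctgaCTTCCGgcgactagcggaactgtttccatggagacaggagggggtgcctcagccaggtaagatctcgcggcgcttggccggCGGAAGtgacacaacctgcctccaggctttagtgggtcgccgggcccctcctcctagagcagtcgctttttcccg
Cops8: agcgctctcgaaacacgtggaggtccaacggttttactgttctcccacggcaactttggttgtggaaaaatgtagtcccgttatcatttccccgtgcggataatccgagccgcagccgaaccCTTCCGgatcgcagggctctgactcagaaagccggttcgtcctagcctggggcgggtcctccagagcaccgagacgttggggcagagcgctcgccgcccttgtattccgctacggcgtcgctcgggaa
Psmb6: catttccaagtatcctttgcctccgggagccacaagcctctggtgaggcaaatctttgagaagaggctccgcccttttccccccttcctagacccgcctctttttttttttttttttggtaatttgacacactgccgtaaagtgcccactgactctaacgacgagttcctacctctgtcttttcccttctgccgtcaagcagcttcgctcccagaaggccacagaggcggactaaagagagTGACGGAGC
Psmd10: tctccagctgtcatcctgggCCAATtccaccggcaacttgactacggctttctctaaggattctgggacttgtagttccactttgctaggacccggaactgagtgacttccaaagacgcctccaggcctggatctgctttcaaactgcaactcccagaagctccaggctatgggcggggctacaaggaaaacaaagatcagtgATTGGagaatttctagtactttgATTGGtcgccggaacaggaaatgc
Of the 50 genes, 42 had an entry among the RefSeq promoters, and 3 motifs were searched on both strands. The ETS core CGGAAG or its complement CTTCCG, the letters bound by ETS factors such as GABPA, stood in 23 of the 42 (54.8%). Among all genes tested at 15 days 27.6% held it, and the share was 29.3% of the genes that passed below 0 and 20.4% of those that passed above. It stood in 6 of 8 signalosome promoters (75%) and in 17 of 34 proteasome promoters (50%). Cops3 held it 75 to 70 and 156 to 151 bases before the start, and Cops8 128 to 123 bases before it. The core of the antioxidant response element, TGACNNNGC, which is read by the NRF factors that control proteasome genes, stood in 4 of the 42 (9.52%), those of Psmb5, Psmb6, Psmd9 and Psmd12, against 12% of the tested genes. In Psmb6 it ended at the base before the start. CCAAT or ATTGG stood in 33.3% of the members and 36.7% of the tested genes, and Psmd10 held it 3 times. These are matches of letters and were not tested as sites.

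The alpha ring, which forms the gate of the core, held no gene that passed in limma's test at 15 days, 0 with an unadjusted p under 0.05 and 0 in a SAM-type test. Its 6 tested genes had means from -0.23 for Psma4 to 0.05 for Psma5, with a median of -0.09. Psma4 read -0.26, -0.15, -0.56 and 0.06 on replicates 1 to 4, and Psma5 read -0.15, -0.41, 0.52 and 0.23. Both crossed 0, and the SD of Psma5 over its arrays (0.41) was larger than its mean.

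In the beta ring, which holds the active sites, the 3 catalytic genes had means below 0, and 1 of them passed. Psmb6, the caspase-like subunit, read -0.48, -0.36, -0.89 and -0.26, with a mean of -0.50 (SE 0.12, n = 4), a 1.41-fold difference that passed limma's test (adjusted p = 0.033). It lay below 0 on every array and lowest on replicate 3. Psmb7, the trypsin-like subunit, read -0.63, -0.51, -0.12 and -0.14, also below 0 on every array, and its mean of -0.35 did not pass (limma adjusted p = 0.084). Psmb5, the chymotrypsin-like subunit, read -0.55, -0.57, 0.10 and -0.27, with a mean of -0.32 (limma adjusted p = 0.13), and was above 0 on replicate 3. Psmb4, a structural beta subunit, was the most even of the ring at -0.41, -0.34, -0.40 and -0.15, with a mean of -0.33 just outside the threshold (limma adjusted p = 0.065). Psmb11, the thymus-specific form of the chymotrypsin-like subunit, stood opposite to these. It read 0.29, 0.08, 0.73 and 0.33, above 0 on every array, and its mean of 0.36 did not pass (limma adjusted p = 0.084). Psmb3, a structural subunit, had the widest range of the core, at -0.26, 0.07, 0.04 and 0.74, and its mean was 0.15, or -0.05 without replicate 4. The median of the beta ring was -0.32 and that of the whole core -0.11.

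In the cap, the 4 measured ATPases lay below 0 on every array, with a median of -0.34. Psmc3 read -0.16, -0.73, -0.62 and -0.32, with a mean of -0.46 (SE 0.12, n = 4), and passed (limma adjusted p = 0.039). It was highest on replicate 1, the only array on which its second probe had a value (0.29). The first probe alone averaged -0.57 and passed too (limma adjusted p = 0.0116 in a fit of single probes, as for every probe value given here). Psmc5, Psmc2 and Psmc1 averaged -0.35, -0.33 and -0.24, with limma's adjusted p of 0.063, 0.068 and 0.151, and did not pass. Their SDs over the 4 arrays were between 0.14 and 0.18.

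The 11 other cap subunits, which bind and remove ubiquitin or form the lid, had a median of -0.07, and none passed in limma's test or a SAM-type test; 2 had an unadjusted p under 0.05. They ran from -0.32 for Psmd8, with values of -0.32, -0.60 and -0.03 on the 3 arrays that measured it, to 0.20 for Psmd2. Psmd2, a scaffold of the base of the cap, read 0.02, 0.09, -0.01 and 0.69, so that replicate 4 stood apart from the other 3. Its 3 probes disagreed. One read 0.42, 0.79, 0.89 and 1.90, with a mean of 1.00 that passed by itself (limma adjusted p = 0.0108), whereas the means of the other two were -0.14 and -0.27. Psmd14, the enzyme that cuts the ubiquitin chain off, averaged 0.04 and crossed 0.

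Among the 3 cap assembly chaperones, Psmd10 and Psmd9 lay on opposite sides of 0. Psmd10 read 0.71, 0.58, 0.30 and 0.36, above 0 on every array, with a mean of 0.49 (SE 0.11, n = 4), a 1.40-fold difference that passed (limma adjusted p = 0.025). Both of its probes were above 0, at means of 0.66 and 0.32, and the second did not pass alone (limma adjusted p = 0.109). Psmd10 lies on the X chromosome, where 14% of the 207 tested genes passed above 0 and 0.483% below. Psmd9 spread less over the arrays than any member but Cops2 and Psme4, at -0.29, -0.44, -0.28 and -0.35, and its mean of -0.34 fell just outside the threshold (limma adjusted p = 0.051). Psmd5 averaged -0.13 and did not pass.

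The activators differed little from 0. Psme1, a PA28 subunit raised by interferon, read -0.08, 0.24, -0.26 and 0.17 and averaged 0.02. Psme4, which encodes PA200, the activator used in spermatids, read -0.16, -0.28, -0.17 and -0.13. It was below 0 on every array within a narrow range, and its mean of -0.18 did not pass. Psme3, the nuclear PA28 form, and Psme3ip1, which binds that form and is no proteasome subunit, averaged -0.10 and -0.02.

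The core assembly chaperones, which pair up to build the alpha ring, were lower, with a median of -0.31. Psmg2 read -0.27, -0.27, -0.50 and -0.41, with a mean of -0.36 (SE 0.10, n = 4), and passed (limma adjusted p = 0.046). Psmg4 read -0.30, -0.46, -0.45 and -0.25, with a mean of -0.36 (SE 0.10, n = 4), and passed (limma adjusted p = 0.044). Both lay below 0 on every array with SDs of 0.11, and both lost the call in every fit that left out 1 array (adjusted p 0.0943 to 0.138 and 0.0678 to 0.137). Their partners Psmg1 and Psmg3 averaged -0.13 and -0.26 and did not pass; Psmg1 was above 0 on replicate 4 at 0.30.

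The 2 lowest means of the 48 tested genes were in the signalosome, of whose 9 genes 3 passed below 0 (33.3%, beside 7.2% of all genes). Cops3, a scaffold subunit, read -0.72, -1.02, -0.87 and -0.28, with a mean of -0.72 (SE 0.13, n = 4), a 1.65-fold difference that passed (limma adjusted p = 0.012). Cops8, the smallest of the classical subunits, read -0.59, -0.51, -0.91 and -0.54, with a mean of -0.64 (SE 0.11, n = 4), a 1.56-fold difference that passed (limma adjusted p = 0.0097). Both lay below 0 on every array, Cops3 nearest to 0 on replicate 4 and Cops8 lowest on replicate 3. Cops8 alone passed in all 4 fits that left out 1 array (adjusted p 0.0186 to 0.0378), and Cops3 lost its call without replicate 3 (adjusted p = 0.0528). Psmb6, Psmc3 and Cops7a passed in 1 of the 4 fits that left out an array and Psmd10 in 2 of 4.

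Cops7a and Cops7b are alternative forms of the same subunit. Cops7a read -0.45, -0.73, -0.50 and -0.16, with a mean of -0.46 (SE 0.12, n = 4), and passed (limma adjusted p = 0.035); its probes averaged -0.32 and -0.60, and only the second passed alone (limma adjusted p = 0.0139). Cops7b read 0.26, 0.13, 0.14 and 0.03, above 0 on every array, and its mean of 0.14 did not pass. Cops7a minus Cops7b was -0.71, -0.86, -0.64 and -0.19 on the 4 arrays. The mean difference was -0.60 ± 0.29 (SD, n = 4), and the exact two-sided sign permutation p of 0.125 is the smallest that 4 arrays allow.

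The catalytic subunit Cops5 and the small subunit Cops9 had the widest ranges of the 50 genes. Cops5 read -0.26, -0.24, 1.47 and 0.50, below 0 on replicates 1 and 2 and above on the other two. Cops9 had the same order of signs, at -0.81, -1.06, 0.27 and 0.10, but lay further below 0 on replicates 1 and 2. Neither passed, and their means of 0.37 and -0.38 average arrays on both sides of 0. Cops2, Cops4 and Cops6 averaged 0.02, -0.06 and -0.22 and did not pass. The median over the 9 signalosome genes was -0.23, and on single arrays it was -0.26, -0.51, -0.01 and 0.02.

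The group medians show how the arrays differ. The cap stayed below 0 on each array, at -0.16, -0.23, -0.19 and -0.14, and so did the activators and core assembly genes, at -0.15, -0.25, -0.22 and -0.12. The core was at -0.26, -0.15, -0.22 and 0.06, above 0 on replicate 4. Markers of 2 germ cell types moved on the same arrays. Of 20 pachytene spermatocyte markers 6 were tested and 5 passed below 0 (83.3%), with medians of -1.01, -1.27, -1.26 and -0.74 on the 4 arrays. Slc2a3, Rsph1 and Lyar averaged -2.16, -1.73 and -1.56, whereas Ccnb1ip1, Sycp1 and Mybl1 averaged -0.58, -0.48 and -0.12. Of 19 spermatogonial markers 9 were tested and 3 passed above 0 (33.3%), with medians from 0.19 to 0.37. Over all genes 7.2% passed below 0 and 4.04% above. Both marker lists were chosen with earlier results of these data known. The medians of the pachytene markers and of all 4 gene groups were highest on replicate 4. That array also had the smallest SD over all probes, 0.31 against 0.39, 0.41 and 0.47 on replicates 1 to 3. The part of germ cell numbers in the members' ratios was not tested. Of 10 Sertoli cell markers tested none passed in limma's test and 0 had an unadjusted p under 0.05, with a median of 0.05. Of all 48 members 19 reached an unadjusted p under 0.05, and of all genes 28.7% did. Of the tested markers, 1 of 8 for Leydig cells and 1 of 6 for endothelium and blood passed above 0, 1 of 5 for macrophages and other leukocytes passed below, and of 8 for peritubular cells 1 passed on either side. Of 12 spermatid markers 1 was tested, Txndc2, which passed above 0 at 0.81 with values on 3 arrays (limma adjusted p = 0.0258). The files hold ratios, so the levels of these markers, and whether any is at 0, are unknown.

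**Figure D2:**
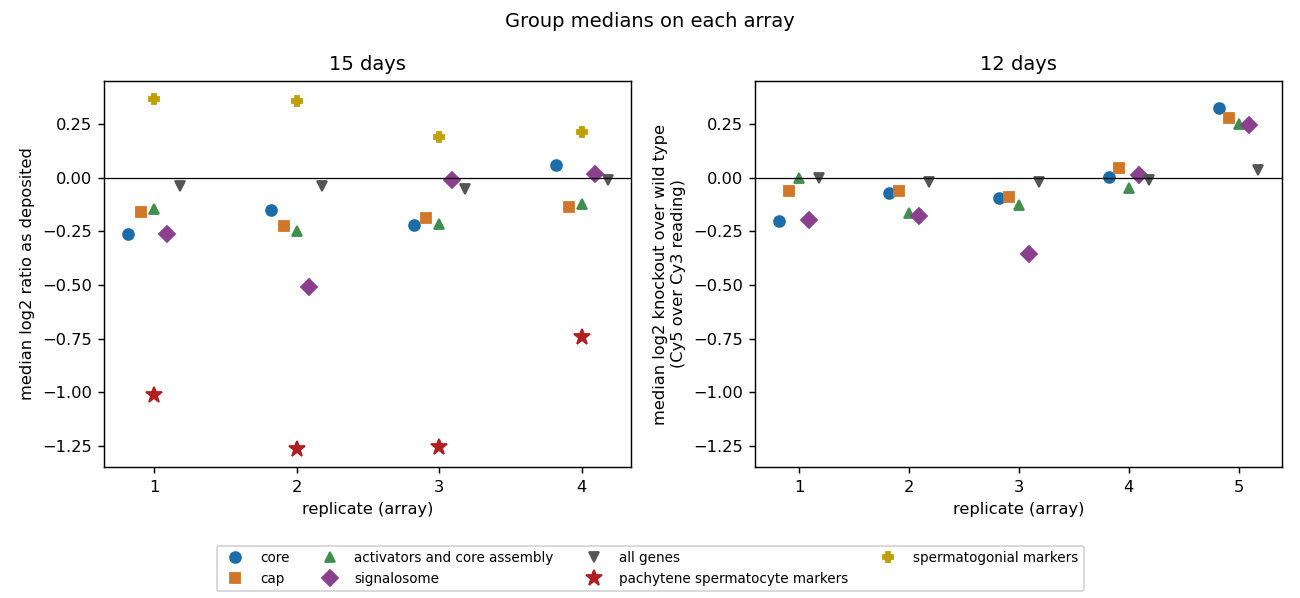
Median log2 ratio of each gene group on each array (x axis, replicates), at 15 days with the sign as deposited (left, with the pachytene and spermatogonial markers) and at 12 days (right) as knockout over wild type if the ratio is Cy5 over Cy3; triangles pointing down are all genes. At 15 days the groups lie between the 2 marker sets, and at 12 days all 4 groups lie above all genes on replicate 5.

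More than 1 probe was present for 14 members, and 5 of these, Psma3, Psmc3, Psmd2, Psmd12 and Cops2, had probe means of both signs at 15 days. Psmc5 shows the other pattern: its 3 probes averaged -0.29, -0.47 and -0.31, and the second passed alone (limma adjusted p = 0.0405) although the gene did not. The mean over the probes of a gene is used throughout, and for Psmd2 it hides a probe unlike the others.

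**Figure D3:**
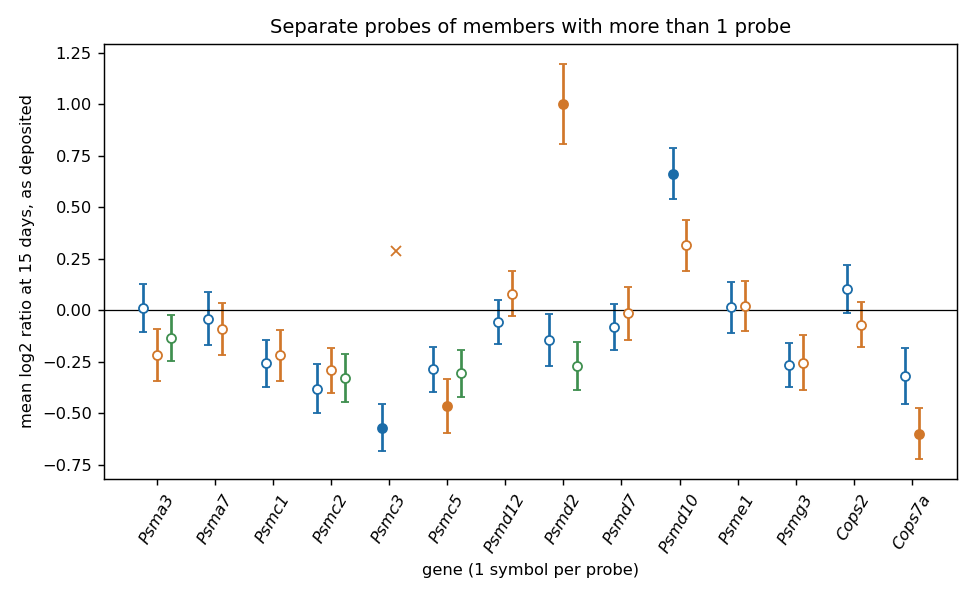
Mean log2 ratio at 15 days, with the sign as deposited, of the separate probes of each gene with more than 1 probe; bars are limma standard errors over 4 arrays and colours only tell the probes of a gene apart. Filled points passed limma's adjusted p under 0.05, open points did not, and the cross is a probe with 1 array; the second Psmd2 probe, at 1.00, lies far from its other two.

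At 12 days the ratios were taken as Cy5 over Cy3, turned to knockout over wild type and fitted with a dye term; if they ran the other way, these signs turn as well. Of the 50 genes, 48 were tested; Psmb5 with 2 values and Cops5 with 3 were not. None passed, as none of the 10075 features did (0%), and limma's adjusted p was 1 for all 48. An unadjusted p under 0.05 was reached by 2 of the 48, beside 1.92% of all genes and 2.67% of features (269), and a SAM-type test called 21 features, no member among them. The group medians were near 0, at -0.0038 for the core, 0.02 for the cap, -0.06 for activators and core assembly and -0.07 for the signalosome. With no array turned and no dye term they were 0.06, 0.09, 0.10 and 0.14, and again no feature passed.

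The 2 genes were Cops7b and Cops9, which were also below 0 on all 5 arrays. Cops7b read -0.36, -0.32, -0.58, -0.03 and -1.02 on replicates 1 to 5, lowest on replicate 5, with a coefficient of -0.46 (SE 0.15; limma adjusted p = 1). Cops9 read -0.98, -0.47, -0.30, -0.13 and -0.12, lowest on replicate 1, with a coefficient of -0.40 (SE 0.15; limma adjusted p = 1). Among all genes with 5 values, 2.71% were below 0 on every array and 1.91% above.

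Replicate 5 stood apart for these genes and for others. The median over the members was -0.11, -0.11, -0.12 and 0.01 on replicates 1 to 4 and 0.27 on replicate 5, where all genes had a median of 0.04. Some other lists were above that on the same array: the median of the tested pachytene markers was 0.52, of the Sertoli cell markers 0.30, of the leukocyte markers 0.21, of the p97 genes 0.20 and of the cullin and NEDD8 genes 0.18. Others were below it. The proteasome partners and regulators were at -0.14, the endothelium and blood markers at -0.10, the Leydig cell markers at 0.01 and the 1 tested spermatid marker at -0.37. The part of these lists in the members' values was not tested. On that array the core was at 0.33, the cap at 0.28, activators and core assembly at 0.25 and the signalosome at 0.25. Without replicate 5 the median of the core was -0.08 and that of the cap -0.04. Fitted coefficients at 12 days were below 0 for 27 of the 48 tested members and 3367 of 6237 genes. The 7 genes that passed below 0 at 15 days were among these, from -0.22 for Psmb6 to -0.04 for Cops7a. The coefficient of Psmd10 was 0.01. None of these 8 genes passed at 12 days, and Psmg4 alone of them was at or below 0 on all 5 arrays. The share below 0 at 12 days among all genes that passed below 0 at 15 days was not worked out. The scales differ between the ages. Under the Cy5 over Cy3 reading these 12-day signs mean a lower level in Spo11-/-, whereas a 15-day value below 0 means a higher one. Under the opposite reading both turn. Cops3 read 0.29, -0.45, -0.41, -0.05 and 0.43, high on 2 arrays with knockout in Cy5 and low on both with knockout in Cy3. Cops8 read 0.15, -0.26, -0.44, 0.18 and 0.02, again low where the knockout was in Cy3. Psmd10 stayed between -0.12 and 0.24.

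**Figure D4:**
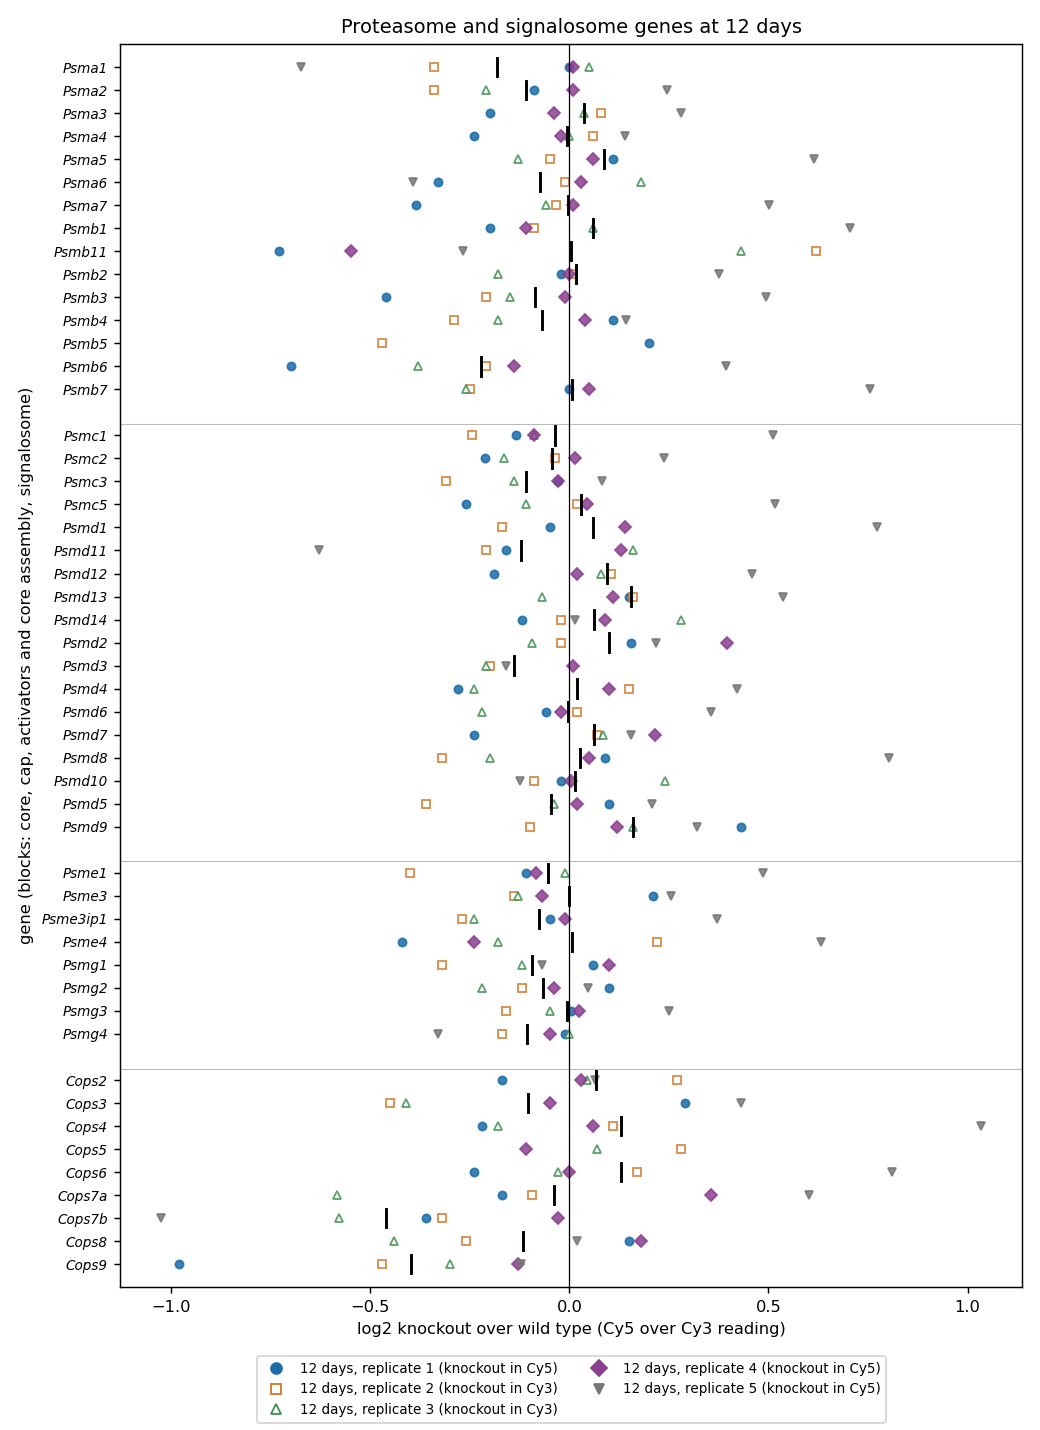
Log2 knockout over wild type at 12 days, if the ratio is Cy5 over Cy3, for each gene (rows) on each of the 5 arrays (symbols, filled for knockout in Cy5 and open for knockout in Cy3). Black ticks are the fitted coefficients; most grey triangles, replicate 5, lie to the right, and Cops7b and Cops9 are below 0 on all 5 arrays.

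A gene that follows the dye and not the genotype keeps its deposited sign when the dyes are swapped. Psmb11 did so, with deposited ratios of -0.73, -0.62, -0.43, -0.55 and -0.27 at 12 days, all below 0, and a dye coefficient of -0.52 (SE 0.10; limma adjusted p = 0.573). Cops3 and Cops8 had dye coefficients of 0.33 and 0.23 (limma adjusted p = 0.718 for both). These 3 of 48 members, and 6.2% of all genes, had an unadjusted p under 0.05 for the dye coefficient, and none passed. All arrays of 15 days had the knockout in Cy3, so dye and genotype cannot be told apart within that age. There, with the sign as deposited, Psmb11 averaged 0.36, Cops3 -0.72 and Cops8 -0.64. Each of these signs is opposite to that of the gene's dye coefficient at 12 days.

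With the dyes the same way round at both ages, most members had opposite signs at 15 and 12 days, as did most genes. Over 46 members, the 15-day mean correlated at r = -0.57 (Spearman's rho = -0.51) with the deposited mean of 12-day replicates 2 and 3. The signs were opposite for 33 of them (71.7%), and for 64.1% of 5875 genes. Over those genes the same correlation was -0.42, and these points share arrays and dyes and are not independent. Against the 12-day arrays with knockout in Cy5, the members gave r = -0.26, with opposite signs for 31 of 45 (68.9%), where all genes gave -0.11 and 51.5%. Members such as Psmd9, at -0.34 and -0.03, and Psma4, at -0.23 and -0.03, were below 0 at both ages. Of the 7 genes that passed below 0 at 15 days, 6 were above 0 on both 12-day arrays with knockout in Cy3; the exception was Psmg4, at 0.17 and 0. The same share over all genes that passed below 0 was not worked out, so this count shows nothing particular to the members.

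**Figure D5:**
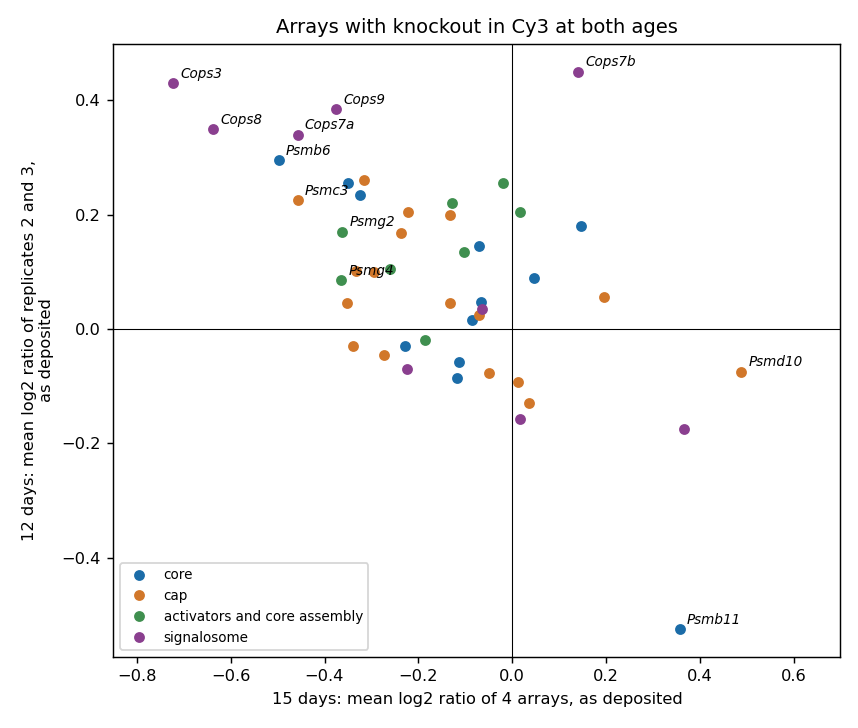
Mean deposited log2 ratio of 12-day replicates 2 and 3 (y axis) against the mean of the 4 arrays at 15 days (x axis) for 46 members, coloured by group; all these arrays had the knockout in Cy3. Cops3, Cops8 and Cops7a lie low at 15 days and high at 12 days, Psmb11 the reverse, and r is -0.57.

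The age difference was therefore fitted in 2 ways, as Cy5 over Cy3 at both ages and with the sign turned at 15 days only. The opposite reading at both ages would turn every difference and leave its p unchanged. Under the Cy5 over Cy3 reading, 2 of 46 members passed, Cops3 and Cops8, where 2.28% of all genes and 2.34% of features passed and 1.64% of genes passed with a higher value at 15 days. Cops3 differed by 1.15 (SE 0.22; limma adjusted p = 0.0293) and Cops8 by 0.99 (SE 0.17; limma adjusted p = 0.0238). Each call was kept in 4 of the 9 fits that left out 1 array. Both were lost without 15-day replicate 1, 2 or 3 and without 12-day replicate 2 or 3, with adjusted p up to 0.177 for Cops3 and 0.153 for Cops8. Cops3 was also lost without a dye term (limma adjusted p = 0.0819). With the sign of the 15-day arrays turned the same genes differed by -0.29 and -0.29, in the opposite direction (limma adjusted p = 0.864 and 0.805), and no feature passed. In that fit 3 members had an unadjusted p under 0.05, Psmd10 at 0.41, Psmd9 at -0.37 and Cops7b at 0.59, where 6.07% of all genes and 6.6% of features did. The group medians under the first reading were 0.11 for the core, 0.27 for the cap, 0.31 for activators and core assembly and 0.54 for the signalosome, beside 0.04 for all genes. With the sign turned they were -0.09, -0.08, -0.06 and -0.13.

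Genes that work with these complexes were taken from lists. Of 30 cullins, NEDD8 pathway genes and signalosome partners, 22 were tested at 15 days, with a median of -0.16. Of these, 6 passed below 0 (27.3%) and 1 above (4.55%). The shares were 7.2% and 4.04% over all genes, and 5.37% and 7.05% over all features. Eloc, an adaptor of cullin ligases, had the lowest mean at -0.63 (limma adjusted p = 0.00814), read -0.57, -0.73, -0.72 and -0.49, and was below 0 on every array. Rnf7, a RING subunit of cullin ligases, averaged -0.56 (limma adjusted p = 0.0157). Nedd8, the modifier that the signalosome removes, read -0.60, -0.28, -0.56 and -0.43 and averaged -0.47 (limma adjusted p = 0.0243). The 1 gene above 0 was Cul4b, a cullin on the X chromosome, at 0.48 (limma adjusted p = 0.0248). Gps1, which encodes a large signalosome subunit under a name without Cops, read -0.49, -0.35, -0.69 and -0.21 and averaged -0.43 (limma adjusted p = 0.0361).

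Of 24 proteasome partners and regulators, 18 were tested and 2 passed below 0 (11.1%, beside 7.2% of all genes), with a median of -0.07. Pomp, the chaperone that matures the beta ring, averaged -0.40 (limma adjusted p = 0.0458) and Ublcp1, a phosphatase of the nuclear proteasome, -0.50 (limma adjusted p = 0.0243). Of 11 tested genes of the p97 unfoldase and its adaptors, 1 passed below 0 (9.09%), Ubxn6 at -0.52 (limma adjusted p = 0.0201). Of 6 tested antigen processing genes, 1 passed above 0 (16.7%, beside 4.04% of all genes). It was Irf1, an interferon-induced transcription factor, at 0.81 (limma adjusted p = 0.0334). At 12 days the medians of these 4 lists lay between -0.03 and 0.02.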

How the data were processed

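The deposited values were log2 ratios, read as log2 although no source used here states the base, 1 column per array. By the design text, the authors used a GenePix 4000A scanner with its 3.0 software and default flags, then median centring and SAM. The sources used here give neither background correction nor ratio direction. The 9 columns were centred again, and probes of 1 gene were averaged; 9604 probes had 1 gene, 213 several and 6311 none. Of those with 1 gene, 98.9% matched RefSeq (GRCm38.p6) by Entrez ID.

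All features were fitted together with limma 3.58.1 in R 4.3.3 (lmFit, eBayes, two-sided, Benjamini-Hochberg over all features). At 15 days the mean was tested against 0 (at least 3 values). At 12 days a knockout coefficient and a dye intercept were fitted (at least 4 values). For the age difference all 9 arrays entered a joint model with a common dye term, tested with the 15-day sign as labelled and turned. The fit was checked on simulated data with known changes and independent noise. These data held no dye effect, so the check does not bear on dye or ratio direction. Signal over background is unknown, so the number of arrays limits precision. P-values measure the spread between arrays. Members, lists and tests were chosen with earlier results of these data known. Named members are those that passed, the lowest and highest of each role group, the widest, and those particular to testis or immune cells; from each list up to 4 of smallest p that passed are named, and any other gene was named after its values were seen. Other normalizations, filters, tests and left-out arrays were tried.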

Additional observations from a re-analysis of the deposited data

Results flagged for a closer look

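Among 50 groups of values tested for an outlying array, 2 held one, and chance flags about 1 group in 20. Psmc1 at 12 days, as knockout over wild type, was 0.51 on replicate 5, and the other 4 arrays lay between -0.24 and -0.09. Psmd2 at 15 days was 0.69 on replicate 4, and the other arrays lay between -0.01 and 0.09.

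The ages differed for 2 members under the Cy5 over Cy3 reading, by the test of the difference itself: Cops3 by 1.15 and Cops8 by 0.99. Each passed in 4 of the 9 fits that left out 1 array, and Cops3 did not pass without a dye term (limma adjusted p = 0.0819). Both values turned below 0, and missed the threshold, when the sign of the 15-day arrays alone was turned.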

How the results depend on the processing

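At 15 days the 1515 passing features became 242 at adjusted p under 0.01 with 1.5-fold, 763 with a dye term from 12 days under the Cy5 over Cy3 reading, 17 with that term and the 15-day sign turned, and 372 (without replicate 3) to 1185 (without replicate 4) with 1 array left out. The 7 members below 0 became 11 with a local median subtracted, 1 at the stricter threshold (Cops8), 0 with the dye term and the turned sign, and 1 (without replicate 3) to 4 (without replicate 4) with 1 array left out. Subtracting a local median added Psmc2, Psmc5, Psmd6, Psmd9 and Cops9 (limma adjusted p = 0.0335 for Cops9), which did not pass in the main fit. The 1 member above 0 became 2 with single probes (Psmd2 and Psmd10), 0 at the stricter threshold, 2 with the dye term under the label reading (Psmb11 and Psmd10), 0 with it and the turned sign, and 0 to 1 with 1 array left out. All 8 passing members remained under trimmed-mean centring, scaling, quantile normalization, robust fits, complete values and the SAM-type test, each of which added Psmd9. Psmg4 was lost with a local median subtracted (limma adjusted p = 0.118) and Psmg2 with single probes. With the dye term under the label reading, Psmb6 and Psmg4 were lost (limma adjusted p = 0.124 and 0.119). At 12 days the SAM-type test gave 21 features, and leaving out an array gave 0.

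For the age difference, the 231 features became 0 with the turned sign, 495 with a local median subtracted, and 10 (without 15-day replicate 3) to 576 (without 12-day replicate 5); the 2 members became 0, 1 without a dye term, 6 with a local median and 0 to 5 with 1 array left out. With the sign turned Cops3 was -0.29 and Cops8 -0.29. The causes were not tested. Each ratio is a difference within a pair of samples, so the tests are paired in that sense; a block for the number range in the array titles at 12 days also gave 0 features and 0 members. Between the ages no paired analysis was possible because the labels carry no numbers that tie arrays of 12 and 15 days together. Signal over background is unknown, which limits what low values show.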
